A study of Sus scrofa with 2 samples.

Results

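The sodium potassium ATPase, or sodium pump, was followed through 6 named genes in RNA from the stria vascularis (SV) of the pig cochlea: the catalytic alpha subunit gene ATP1A4, the beta subunit genes ATP1B1, ATP1B2 and ATP1B3, and the FXYD genes FXYD2 and FXYD6. A gene was included when a row of the deposited expression table carried its name as symbol, in its description or through its Ensembl identifier. Of these 6 genes, 4 were found among 27622 features: ATP1A4, ATP1B1, ATP1B2 and FXYD2. No row carried the name of ATP1B3 or FXYD6, and these genes were not analysed here. Pigs of the Rongchang breed were compared, with 1 library labelled MITF R/r, heterozygous for the mutant r allele of the pigment cell factor MITF, and 1 library labelled MITF r/r, homozygous for it. Both animals therefore carried the mutant allele, and no library of an R/R pig was used. The r allele arose spontaneously in this breed, and r/r pigs are albino and deaf. The labels give postnatal day 1 as the age of both animals, whereas the study's text places these samples before birth. The labels describe SV tissue dissected from the cochlear lateral wall, and markers of fibrocytes of the adjoining spiral ligament were abundant in both libraries.

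The sodium pump moves sodium out of a cell and potassium into it at the cost of ATP. Its alpha subunit carries the ATPase activity, its beta subunit is needed for the alpha subunit to fold and to reach the plasma membrane, and small FXYD proteins bind the complex and tune its affinity for ions. In the cochlea the pump is dense in the basolateral membrane of the marginal cells of the SV and in fibrocytes of the spiral ligament, where it works with the cotransporter SLC12A2 to load cells with the potassium that is secreted into the endolymph.

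Expression was given as RPKM, the mapped reads of a gene scaled to the length of its exon model in kilobases and to the mapped reads of its library, so that levels of different genes can be set side by side. The steps between low RPKM values allowed the reads behind each value to be worked out, and the totals came to 15829244 reads (R/r) and 14258672 reads (r/r). A single read on a gene of 1000 bases was worth 0.0632 and 0.0701 RPKM, respectively. For any gene the true reads may be a whole multiple of those given, the same in both libraries. Its interval is then too wide, and its depth, by which genes sequenced as deeply or deeper were chosen, is too low. The table gives no genome positions. All intervals are exact 95% intervals on these reads and take in no error other than that of counting. Since each genotype had 1 library, no difference has a replicate check and no p-value is given, so what is compared is a pair of libraries and not their genotypes. MITF itself, whose M transcript is the one affected by the r allele, had 51.7 RPKM in R/r SV and 37.8 RPKM in r/r SV. These values are for the most abundant of its 3 features and do not separate the M transcript from the others. By exon, the study reported a far lower level of the M exon in r/r SV. The median log2 ratio, r/r over R/r, was -0.02 over the 16331 genes that were above 0 in both libraries with at least 1 RPKM in one of them.

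ATP1B2 had the highest level of the sodium pump genes reported here in both libraries and was 1.75-fold lower in r/r SV, whereas ATP1B1 was higher there, by 0.26 on the log2 scale. ATP1A4, a gene of low level, was 4.66-fold lower in r/r SV, and FXYD2 was near the same level in both libraries. The summed level of the beta genes was 1203 RPKM in R/r SV and 867 RPKM in r/r SV, a log2 ratio of -0.47, and their mixture differed between the libraries. In RNA of a whole tissue, fewer cells of a type and less RNA per cell cannot be told apart.

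**Figure D1:**
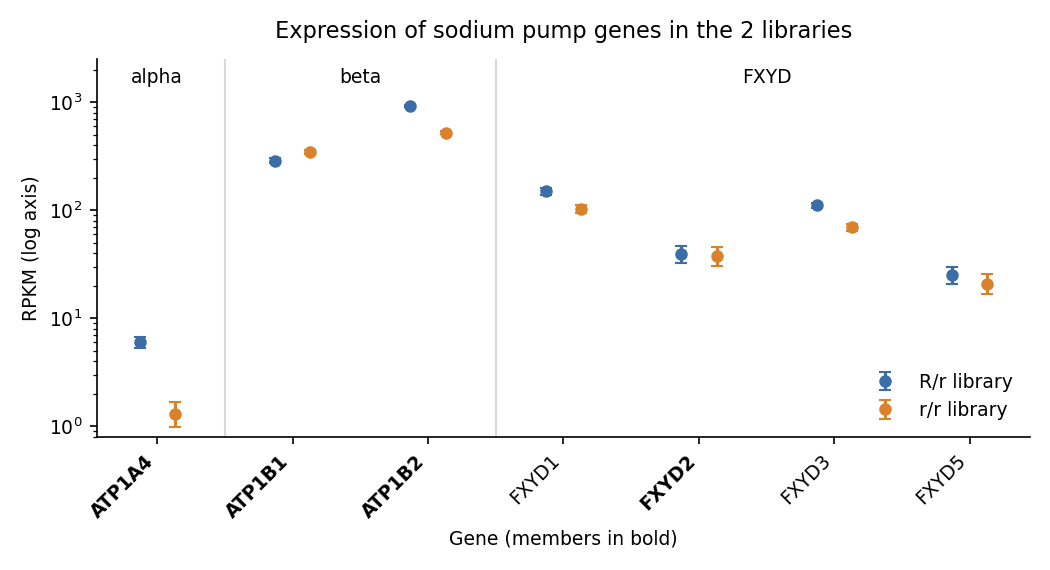
RPKM (log axis) of the sodium pump genes with at least 1 RPKM in each library, grouped as alpha, beta and FXYD genes, with the members ATP1A4, ATP1B1, ATP1B2 and FXYD2 in bold. Points are the single R/r (blue) and r/r (orange) libraries and bars are exact 95% Poisson intervals on the reads; ATP1B2 stands at 915 and 522 RPKM and ATP1A4 at 6.02 and 1.29 RPKM.

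ATP1B2 (ENSSSCG00000017951) encodes the beta-2 subunit, also known as a molecule of adhesion on glia. It had 915 RPKM in R/r SV (interval 899 to 931) from 12642 reads. In r/r SV it had 522 RPKM (509 to 535) from 6496 reads. These intervals lie far apart, and ATP1B2 was the 63rd most abundant feature of R/r SV and the 141st of r/r SV. Its log2 ratio was -0.81 (-0.85 to -0.77), short of the 2-fold threshold that the study used. ATP1B2 had the lowest ratio of the 125 genes sequenced as deeply or deeper (itself included), with 0 below it.

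ATP1B1 (ENSSSCG00000006296) encodes the beta-1 subunit, the beta subunit found in most tissues. It had 288 RPKM in R/r SV (274 to 303) from 1568 reads. In r/r SV it had 345 RPKM (329 to 362) from 1693 reads. The level was higher in r/r SV by more than counting error, with a log2 ratio of 0.26 (0.16 to 0.36). Of 1695 genes sequenced as deeply or deeper, 5.60% had a higher ratio.

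ATP1B4, whose protein in placental mammals has left the pump and resides in the nuclear membrane of muscle cells, was listed at 0 in both libraries. The beta subunit RNA with a name in the table therefore came from ATP1B1 and ATP1B2. ATP1B2 made up 76.1% of it in R/r SV (exact interval 75.1 to 77.0) and 60.2% in r/r SV (58.9 to 61.5). ATP1B2 was 3.18 times as abundant as ATP1B1 in R/r SV and 1.51 times in r/r SV. The ratio between both genes in r/r SV was 0.476 times that in R/r SV (0.441 to 0.513), a comparison in which gene length and library scaling cancel. ATP1B3 is missing from these shares, and its part in the beta subunit RNA is not known here.

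**Figure D2:**
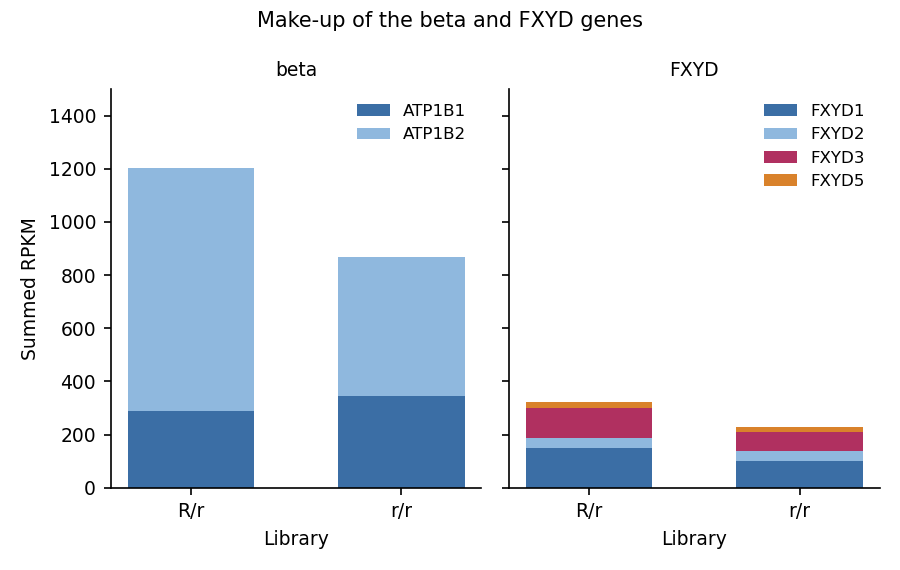
Stacked bars of RPKM for the beta and FXYD genes with a row, so that ATP1B3, FXYD6 and FXYD7 are missing. The R/r library is on the left and the r/r library on the right of each panel. Each genotype had 1 library, hence there are no error bars. The beta bars reach 1203 and 867 RPKM with a smaller ATP1B2 part in r/r SV, and the FXYD bars reach 324 and 229.6 RPKM; genes under 1 RPKM are not drawn.

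ATP1A4 (ENSSSCG00000020953) encodes the alpha-4 subunit, best known from the testis and from the tail of sperm, where it is needed for motility. It had 6.02 RPKM in R/r SV (5.35 to 6.75) from 295 reads. In r/r SV it had 1.29 RPKM (0.978 to 1.67) from 57 reads. The intervals do not overlap, and the log2 ratio was -2.22 (-2.66 to -1.81), or 4.66-fold lower. ATP1A4 is not on the study's own list of genes 2-fold apart, which also gave a p-value for each gene. Of all genes compared, 0.331% had a lower ratio, and of 9020 genes sequenced as deeply or deeper, 6 had one. A pseudocount of 1 RPKM gave a log2 ratio of -1.62, since the level in r/r SV is near 1 RPKM. The genes of the alpha subunits are similar in sequence, and how the authors assigned reads among similar genes is not given in the sources used here, so the level of ATP1A4 could include reads of its relatives.

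FXYD2 (ENSSSCG00000015084) encodes the gamma subunit, best known from the kidney tubule. It had 39.2 RPKM in R/r SV (32.6 to 46.8) from 123 reads. In r/r SV it had 37.5 RPKM (30.7 to 45.4) from 106 reads. The intervals overlap almost wholly, and the log2 ratio of -0.06 had an interval of -0.45 to 0.32, so that a difference of up to 1.37-fold lower in r/r SV was within counting error. FXYD6, the gene next to FXYD2 among protein-coding genes of the RefSeq annotation of Sscrofa11.1, was not analysed here.

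Among the FXYD genes with a row, FXYD2 was the third most abundant in both libraries. FXYD1, which encodes phospholemman, the FXYD protein of heart and skeletal muscle, had 149 RPKM in R/r SV and 102 RPKM in r/r SV (log2 ratio -0.55, -0.70 to -0.39). FXYD3, found in several epithelia, had 111 and 69.4 RPKM (-0.68, -0.81 to -0.55). FXYD5, also known as dysadherin, had 24.9 and 20.8 RPKM (-0.26, -0.66 to 0.14). FXYD4 had a single read in each library, and no row carried the name of FXYD7. FXYD2 made up 12.1% of the summed FXYD level in R/r SV and 16.4% in r/r SV, while the counting interval of its own ratio included no change. FXYD6 and FXYD7 are missing from these shares, and their part in the FXYD RNA is not known here. Relative to FXYD3, FXYD2 was 1.53 times as high in r/r SV as in R/r SV (1.15 to 2.03), and relative to FXYD1 1.40 times (1.04 to 1.87).

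By level, the sodium pump genes reported here had the same order in both libraries, from ATP1B2 through ATP1B1, FXYD1, FXYD3, FXYD2 and FXYD5 to ATP1A4. All neighbours in this order were apart by more than counting error within each library. The genes NKAIN1, NKAIN2, FXYD4 and ATP1B4 followed at under 1 RPKM in each library, the first of them, NKAIN1, at 0.416 and 0.597 RPKM from 17 and 22 reads. NKAIN2 had a single read in R/r SV and none in r/r SV, and NKAIN3 and NKAIN4 were not found by name. NKAIN proteins bind the beta-1 subunit.

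All 4 members were above 0 in both libraries with at least 1 RPKM in each, and 1 of them, ATP1A4, was at least 2-fold apart. Over all 16331 genes compared, 3.99% were at least 2-fold apart, with 2.20% lower and 1.78% higher in r/r SV. At a threshold of 1.5-fold, ATP1B2 was added, against 10.8% of all genes in either direction, 6.31% lower and 4.53% higher. The interval of ATP1A4 lay wholly below 1.5-fold lower, as did that of ATP1B2, against 0.998% of all genes. For 1 member, ATP1B1, the interval lay wholly above no change, against 11.2% of all genes. For ATP1A4 and ATP1B2 it lay wholly below no change, against 14.5%. Deeper genes have narrower intervals, and these shares of intervals over all genes are not matched for depth. The median gene compared had 449 reads over both libraries, against 352 for ATP1A4, 3261 for ATP1B1 and 19138 for ATP1B2. The median log2 ratio of the 4 members was -0.44. Of the 7 other sodium pump genes with a row, FXYD1, FXYD3 and FXYD5 reached 1 RPKM and were above 0 in both libraries. All 3 were lower in r/r SV, with a median log2 ratio of -0.55, and none was 2-fold apart.

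**Figure D3:**
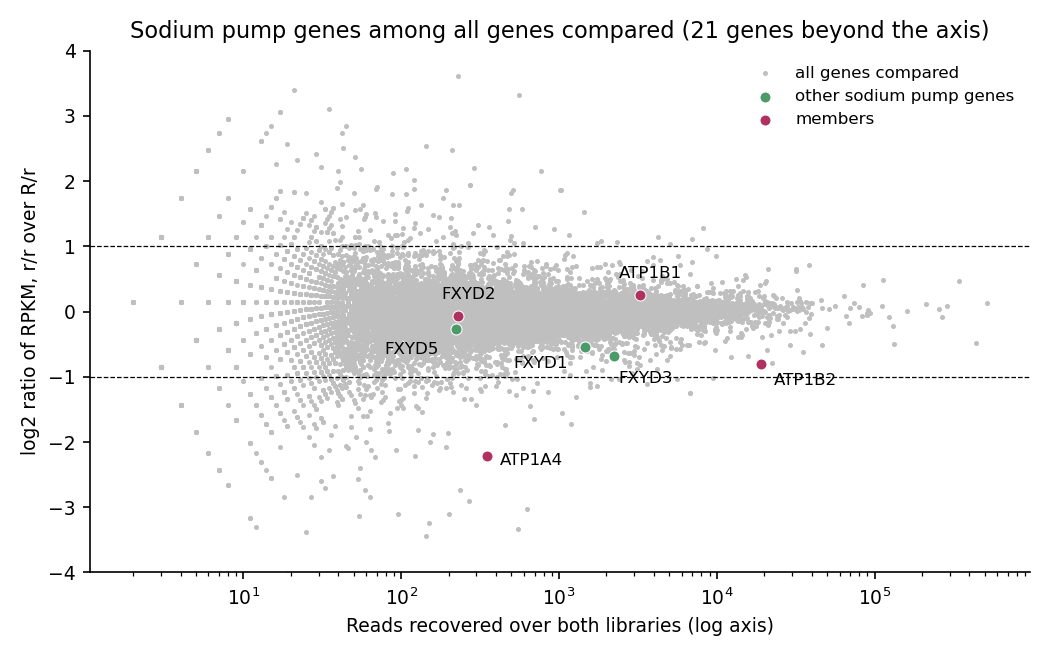
The log2 ratio of RPKM, r/r over R/r, against the reads over both libraries (log axis) for 16331 genes (grey), with the members in red, the other sodium pump genes in green and dashed lines at 2-fold; 21 genes lie beyond the axis. ATP1A4 at -2.22 lies below nearly all genes of its depth, ATP1B2 at -0.81 lies at the lower edge of the genes with as many reads, and FXYD2 at -0.06 lies in the middle.

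The genes that work with the pump in potassium secretion were set beside it, from a list of 6 genes of which 4 had a row. SLC12A2, the sodium, potassium and chloride cotransporter NKCC1, had 312 RPKM in R/r SV and 334 RPKM in r/r SV (log2 ratio 0.10, 0.05 to 0.15). KCNE1, a subunit of the apical potassium channel of marginal cells, had 278 and 248 RPKM (-0.17, -0.27 to -0.06). BSND, the barttin subunit of chloride channels, had 10.5 and 7.62 RPKM (-0.46, -0.83 to -0.09). SLC12A7, a potassium and chloride cotransporter, had 40.7 and 46.1 RPKM (0.18, 0.04 to 0.33). Thus 2 of these 4 genes were lower and 2 higher in r/r SV, none of the 4 was 2-fold apart and their median was -0.03, which became 0.01 with both libraries scaled to the same median. KCNQ1 and KCNJ10 were not found under these names. KIR1.2, an older name of KCNJ10, the potassium channel of intermediate cells, was carried by 1 feature (ENSSSCG00000027420), a match made after its values were seen. It had 20.0 RPKM in R/r SV from 361 reads and 5.97 RPKM in r/r SV from 97 reads, 3.35-fold lower (log2 ratio -1.75, -2.08 to -1.42). Counted as KCNJ10, it made 1 of 5 partners at least 2-fold lower and moved their median to -0.17.

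Pumps for other ions are relatives of the alpha subunits or, for ATP4B, of the beta subunits. Of 10 such genes 6 were compared, with 4 lower, 2 higher, none 2-fold apart and a median log2 ratio of -0.14. ATP2A3, a calcium pump of the endoplasmic reticulum, had the highest ratio, with 10.9 RPKM in R/r SV and 17.9 RPKM in r/r SV (0.71, 0.52 to 0.90). ATP2B1, a calcium pump of the plasma membrane, had 45.7 and 36.8 RPKM (-0.31, -0.40 to -0.23). ATP12A and ATP4B, subunits of proton and potassium pumps, were listed at 0 in both libraries.

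Of 14 regulators of the pump or of its partners, 12 were compared, with 8 lower, 4 higher, none 2-fold apart and a median log2 ratio of -0.17. WNK4, a kinase that acts on cation and chloride cotransporters, had 101 RPKM in R/r SV and 76.9 RPKM in r/r SV (-0.39, -0.44 to -0.34). ESRRB, a nuclear receptor of marginal cells that governs genes of ion transport there, had 69.6 and 56.1 RPKM (-0.31, -0.41 to -0.21). SGK1, a kinase induced by corticosteroids that raises sodium transport, had 98.5 and 102 RPKM (0.05, -0.04 to 0.15). The receptors NR3C1 and NR3C2 had log2 ratios of 0.15 and -0.25. Over all genes compared 53.3% were lower and 46.7% higher in r/r SV.

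**Figure D4:**
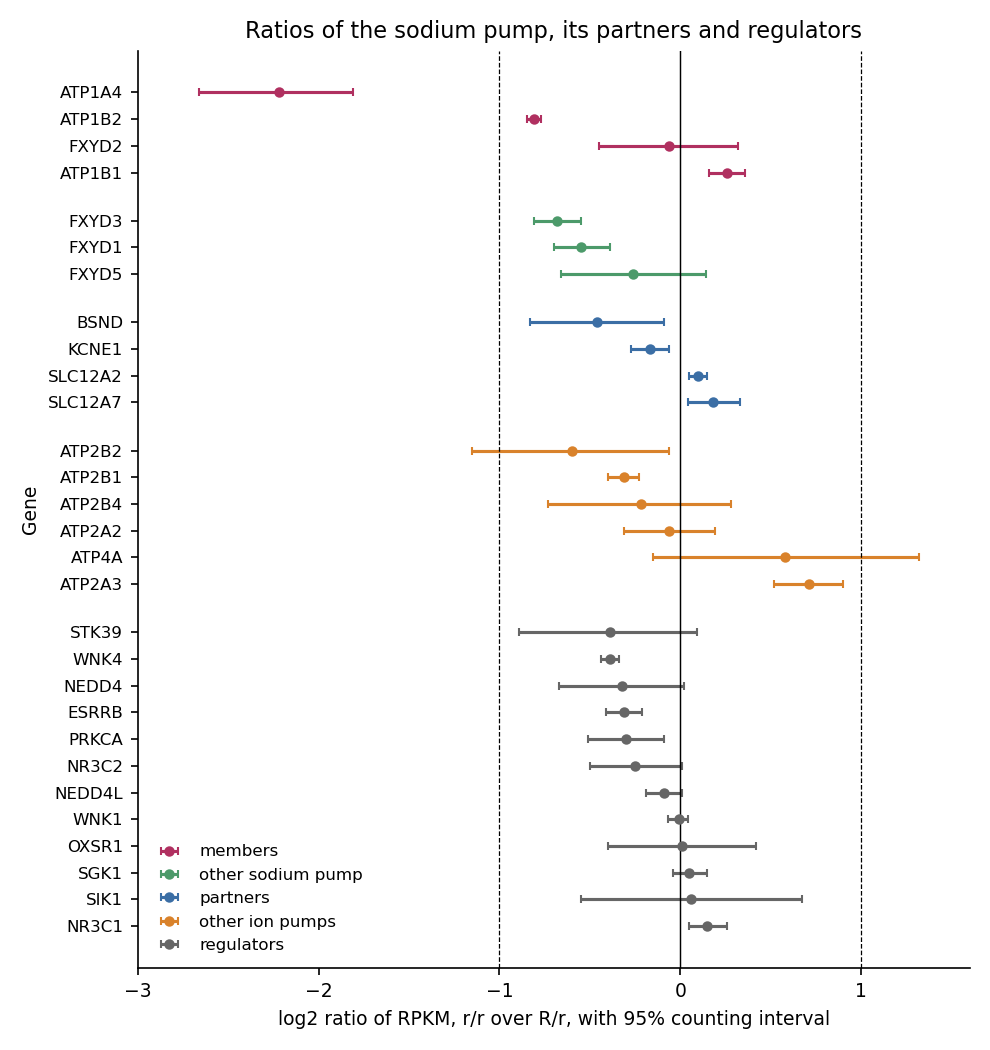
The log2 ratio of RPKM, r/r over R/r, for members, other sodium pump genes, partners in potassium secretion (without KIR1.2), other ion pumps and regulators, with exact 95% counting intervals as bars and dashed lines at 2-fold. ATP1A4 is the one gene drawn whose point lies beyond the 2-fold line, and ATP1B2 at -0.81 is the lowest of the others.

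Markers of cell types differed between the libraries to different degrees and in both directions, and their part in the results was not tested. Of 8 markers of intermediate cells and melanocytes 7 had a row, and their summed level was 245 RPKM in R/r SV and 2.07 RPKM in r/r SV. All 5 that were compared were at least 2-fold lower, from -10.64 to -4.92 on the log2 scale. MLANA had 12.0 RPKM in R/r SV from only 4 reads, and its 0 in r/r SV had an interval up to 12.3 RPKM. TYRP1 had 1 read in each library. With KIR1.2 counted as KCNJ10 the sums were 265 and 8.04 RPKM. Most genes of this list serve melanin synthesis or are known targets of MITF, so their summed level is no count of cells. Of 5 further genes of the pigment cell lineage, chosen after their values were seen, EDNRB was lower, at 17.3 and 1.71 RPKM (-3.34, -3.81 to -2.90). The log2 ratios of the others were 0.02 for KIT, -0.21 for SOX10 (-0.58 to 0.16), -0.02 for MCAM and 0.04 for S100B. Several of these genes are also used by other cells of the lateral wall. The SOX10 value is for the more abundant of its 2 features, which the study named SOX10-like. Of 5 markers of marginal cells 4 had a row, with summed levels of 671 and 646 RPKM and a median log2 ratio of -0.24. Of these, 3 were lower in r/r SV with intervals wholly below no change. The 1 higher gene, SLC12A2 at 0.10, also works with the pump in fibrocytes. It had 312 and 334 RPKM and so weighs much in the sums. These 4 genes are also in the lists of partners and regulators. The 3 markers of basal cells summed to 1138 and 983 RPKM, with a median of -0.13. Of 6 markers of spiral ligament fibrocytes 5 had a row, with sums of 8349 and 6884 RPKM. Most of these sums came from COCH, at 6826 and 4914 RPKM. The 4 compared genes of this list were divided, from -0.47 for COCH to 0.40 for CA3, with a median of 0.11. Muscle markers were included since the FXYD1 protein is known from muscle. They summed to 18.0 and 15.9 RPKM over 6 genes, with ACTA1 and MYL1 at 0 in R/r SV. Neuron markers summed to 0.810 and 1.69 RPKM over 5 genes, none of which reached 1 RPKM. Markers of Schwann cells and glia were included since the beta-2 subunit is also known from glia, and which cells the ATP1B2 RNA came from was not tested. Of these 4 markers 3 had a row, with sums of 167 and 252 RPKM and a median of 0.11. GFAP, the intermediate filament of astrocytes and some Schwann cells, was 2-fold or more higher in r/r SV, at 1.28 on the log2 scale. It had 56.2 RPKM in R/r SV and 136 RPKM in r/r SV. PRX was at 0.11 (-0.01 to 0.22) and MPZL1 at 0.07 (-0.01 to 0.14), so the higher sum came mostly from GFAP. Erythroid markers summed to 3025 and 2440.3 RPKM over 3 genes, with a median of -0.30, and endothelial markers to 129.8 and 119.9 RPKM over 2 genes, with a median of -0.11.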

How the data were processed

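RNA of the pig SV was sequenced as 1 library per genotype. Per the study's methods and the labels, filtered reads were placed on the pig genome Sscrofa10.2 by TopHat2 (2.0.7), and the authors deposited RPKM values. The counting program and annotation release are not given in the sources used here. Names came from the symbol (16376 features), the description (297) or an Ensembl name table (1631), and 9318 features stayed unnamed.

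Log2 ratios were computed without a pseudocount. Whole reads were recovered as the smallest length at which both RPKM values gave whole reads within 0.0002, which succeeded for 100.0% of 20862 features above 0. Library totals were those that made lengths whole for 73.6% of 2843 genes. Of 10 mitochondrial genes, 8 had RefSeq lengths that were whole multiples of the recovered length. Intervals were Clopper-Pearson for ratios and shares, Poisson for levels and conditional for ratios of ratios. The steps were tested on simulated data.

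The members and all lists were chosen with earlier results of these data known. Named genes are the members, the other sodium pump genes, and genes of the lists of partners, other ion pumps, regulators and cell markers. Some genes of these lists are not reported here and are left out of all counts, sums and medians over the lists. LGI4, HPN, MITF, KIR1.2, KIT, SOX10, MCAM, S100B and EDNRB were added after their values were seen. Alternatives were pseudocounts, scalings, minimum values, summed features, undivided reads, a 1.5-fold threshold and, added after seeing the data, KIR1.2 counted as KCNJ10. A further 2 columns without headings, which hold values for 22 genes, were not used. The work was run in Python 3.11.15 with scipy 1.17.1, numpy 2.4.6 and pandas 2.3.3, and plots were drawn with matplotlib 3.10.9.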

Additional observations from a re-analysis of the deposited data

How the results depend on the processing

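No paired analysis was possible because each genotype had a single library. Under the alternatives tried, 1 value changed direction. It was the median of the partners in potassium secretion, from -0.03 to 0.01 with scaling to the same median. Of the alternative values free to move, 53 stayed within set bounds. The bounds were the counting interval for a ratio or share and 1.5 times for a count. For a median over a list they were the medians of the low and high interval ends of its genes. That range is no counting interval of the median. A further 14 could not move by construction, such as summed features for a gene with 1 feature. The log2 ratio of ATP1A4 was -1.62 with a pseudocount of 1 RPKM, and that of ATP1B2 was -0.76 when both libraries were scaled to the same median. The number of members at least 2-fold apart became 2 at a threshold of 1.5-fold, where ATP1B2 joined ATP1A4 and 10.8% of all genes passed. The median of the other sodium pump genes was -0.26 with no minimum RPKM value. The median of the partners was -0.17 with KIR1.2 counted as KCNJ10, an alternative chosen after seeing the data. The share of ATP1B2 among the beta genes was 89.0% in R/r SV and 79.3% in r/r SV when reads were not divided by length, and these shares depend on reads known only up to a common factor. Scaling to the median, to the upper quartile or to TPM moved all ratios by 0.05, 0.01 and -0.04 on the log2 scale. Depth limits FXYD2, whose interval spans no change, and FXYD4 and NKAIN2, with 1 read at most in a library. One library per genotype limits every comparison.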

Other observations

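FXYD3 and FXYD5 lie in 1 stretch of protein-coding genes of the RefSeq annotation of Sscrofa11.1, in the order HPN, FXYD3, LGI4, FXYD7 and FXYD5. LGI4 had 26.0 RPKM in R/r SV and 7.84 RPKM in r/r SV, a log2 ratio of -1.73 (-1.94 to -1.53), beside -0.68 for FXYD3 and -0.26 for FXYD5. HPN, on the other side of FXYD3, had a log2 ratio of -0.04 (-0.27 to 0.19). LGI4 and HPN were chosen after their values were seen. Whether reads were counted by strand is not given in the sources used here.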
